A study of Mus musculus with 8 samples.

Results

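The transcripts of the oxygen-sensing pathway were examined in mouse brown adipose tissue (BAT) after thoracic aortic constriction (TAC), in which the aorta is narrowed by surgery and the left ventricle is loaded with pressure, and after a sham operation (Sham). The 10 genes described were the subunits of hypoxia-inducible factor (HIF), Hif1a, Epas1, Hif3a and Arnt, the hydroxylases Egln1, Egln2, Egln3 and Hif1an, the recognition protein Vhl and the hypoxia-induced gene Bnip3. They were chosen by name, with earlier results of these data known. Every probe whose RefSeq transcript belongs to one of these genes was taken, which gave 19 of the 55681 probes and 10 of the 21154 genes with a symbol. Each group held 4 one-colour Agilent arrays of whole BAT, described by the labels as independent samples, from male C57BL/6NCrSlc mice kept at 23 ℃ on normal chow, operated on at 11 weeks and sampled at 13 weeks of age. No genotype or drug is named for either group. The interval after surgery is 2 weeks in most labels and 4 weeks in one line of them. The arrays measured RNA of all cells of the tissue, so fewer cells of a type and less RNA per cell cannot be told apart.

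HIF is a transcription factor made of an alpha subunit (HIF-1α, EPAS1 or HIF-3α) and the shared beta subunit ARNT. When oxygen is plentiful, the EGLN enzymes use it to hydroxylate prolines of the alpha subunit, VHL binds the hydroxylated protein and hands it to a ubiquitin ligase, and HIF1AN hydroxylates an asparagine that blocks contact with the coactivators EP300 and CREBBP. When oxygen falls, the alpha subunit is spared, joins ARNT and binds DNA at the core letters ACGTG or GCGTG, and Egln1, Egln3 and Bnip3 are among the genes that are known to be induced. Control of the alpha subunits acts mainly on the protein, which these arrays did not measure.

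The sequences upstream of 3 members known as hypoxia-induced are shown, with that of the target Pdk1, which had the smallest p of its list in these data. The sequences were taken from RefSeq for the mouse build GRCm38.p6, 150 bases each, 5′ to 3′ on the strand of the gene. Capitals mark the core letters ACGTG or GCGTG on either strand. The Egln3 stretch lies further upstream than the others and holds the only match within 250 bases of its start.
Bnip3, chr7:138909507-138909656, minus strand, bases -150 to -1 before the start: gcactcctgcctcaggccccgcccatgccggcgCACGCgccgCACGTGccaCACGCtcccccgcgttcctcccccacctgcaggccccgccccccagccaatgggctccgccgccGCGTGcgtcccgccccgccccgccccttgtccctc
Egln1, chr8:124949255-124949404, minus strand, bases -150 to -1: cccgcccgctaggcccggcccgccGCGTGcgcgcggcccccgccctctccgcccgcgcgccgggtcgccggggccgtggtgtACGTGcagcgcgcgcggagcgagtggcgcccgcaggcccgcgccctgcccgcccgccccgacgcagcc
Egln3, chr12:54203975-54204124, minus strand, bases -250 to -101: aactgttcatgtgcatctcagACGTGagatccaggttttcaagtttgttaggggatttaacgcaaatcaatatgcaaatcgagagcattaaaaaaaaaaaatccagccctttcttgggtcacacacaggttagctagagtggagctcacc
Pdk1, chr2:71873074-71873223, plus strand, bases -150 to -1: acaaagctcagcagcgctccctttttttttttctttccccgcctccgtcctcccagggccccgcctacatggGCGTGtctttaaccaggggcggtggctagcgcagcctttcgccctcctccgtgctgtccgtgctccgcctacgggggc

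Over the 250 bases before the start, 12679 of 32851 RefSeq promoters (38.6%) held at least 1 match to these letters, and 8 of the 10 windows of 9 members did. Epas1 had no window. The share was similar in related genes described below, at 73.3% to 77.8% in 3 lists of HIF targets. It was 81.8% for VHL ligase partners and HIF cofactors, and 36.4% for other oxygen-dependent dioxygenases and ARNT relatives. Bnip3 held 5 matches, of which 2 overlap, because CACGTG reads ACGTG on both strands. Hif1a held 3, of which 2 overlap in the same way, Egln1 and Hif3a held 2, Egln3 and Arnt held 1, and Hif1an and Vhl held 0. Egln2 has 2 start sites, with 4 matches at one and 1 at the other. These matches are letters in a window and say nothing of binding in these mice.

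The deposited spot intensities of 7 arrays (the 4 TAC arrays and Sham replicates 2 to 4) were used, as log2 relative to the 75th percentile of the array, so a level of 0 is the intensity at that percentile. Sham replicate 1 was used only through the authors' table of all 8 arrays, which holds intensities divided by the same percentile taken over probes. Levels from the table and from the spots lie on different baselines and are kept apart below. Between 54.5% and 64.3% of the spots of an array were well above background. The 7 arrays came from 1 slide, with the Sham arrays in one row and the TAC arrays in the other, so the row and the surgery cannot be told apart. TAC replicate 1 stood apart from the other 6 arrays over all probes (89.6 on the first principal component, against -32.5 to 3.58), and member values that it moved most are also given without it. Of the brown adipocyte genes, Ucp1 was at 9.40 to 9.70 (log2) on the Sham arrays and 8.37 to 9.22 on the TAC arrays. Elovl3, a fatty acid elongase, was at 1.57 to 2.06 on Sham and -3.78 (TAC replicate 1) to 0.84 on TAC. Dio2, which activates thyroid hormone, was at 2.37 to 3.74 on Sham and 0.64 (TAC replicate 1) to 3.79 on TAC. Prdm16, a factor of brown fat identity, was at -0.22 to 0.36 and -0.39 to 0.25. Cidea was at 10.36 to 10.67 and 10.08 to 10.54, and Adipoq at 8.02 to 8.09 and 8.04 to 8.37. Macrophage markers on TAC replicate 1 were on average 1.05 above the Sham mean (log2, 10 genes), against -0.52 to -0.16 on the other TAC arrays. Lymphocyte markers (6 genes that passed the filter on dim probes) were 1.32 above it, against -0.23 to 0.081. Brown adipocyte markers (12 genes) were at -1.03 there, against -0.45 to 0.0061. That mean leaned on Elovl3 and Dio2, which lay furthest below their Sham values on that array. The other markers also lay below their Sham ranges there, except Adipoq and Pparg, which lay within them. The summed macrophage level was 22.7 to 28.8 times the 75th percentile on the Sham arrays and 18.1 to 47.9 on the TAC arrays, and the summed lymphocyte level 2.75 to 3.34 and 2.68 to 4.97.

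No member passed the test between TAC and Sham. Of the 19 probes 18 were tested, and 0 had a Benjamini-Hochberg adjusted p under 0.05 in limma's fit over all 33356 probes tested, in which 0% of probes were called. At an unadjusted p under 0.05, 0 member probes were higher after TAC, against 4.38% of all tested probes, and 0 were lower, against 8.43%. The smallest adjusted p of a member was 0.446, for Egln1. The estimates were above 0 for 7 probes and below 0 for 11, with a median of -0.11 on the log2 scale, against -0.032 over all tested probes. All TAC arrays lay below all Sham arrays for 2 member probes (Egln1 and Epas1 probe 1) and above them for 0, against 10.4% and 5.59% of all probes. In the table of 8 arrays these counts were 0 and 0, against 6.29% and 3.53%. By the table of 8 arrays, Hif1a alone of the member probes (1 of 18) was lower at an unadjusted p under 0.05 and 0 were higher, against 9.55% and 4.65% of all probes, and its adjusted p was 0.343.

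**Figure D1:**
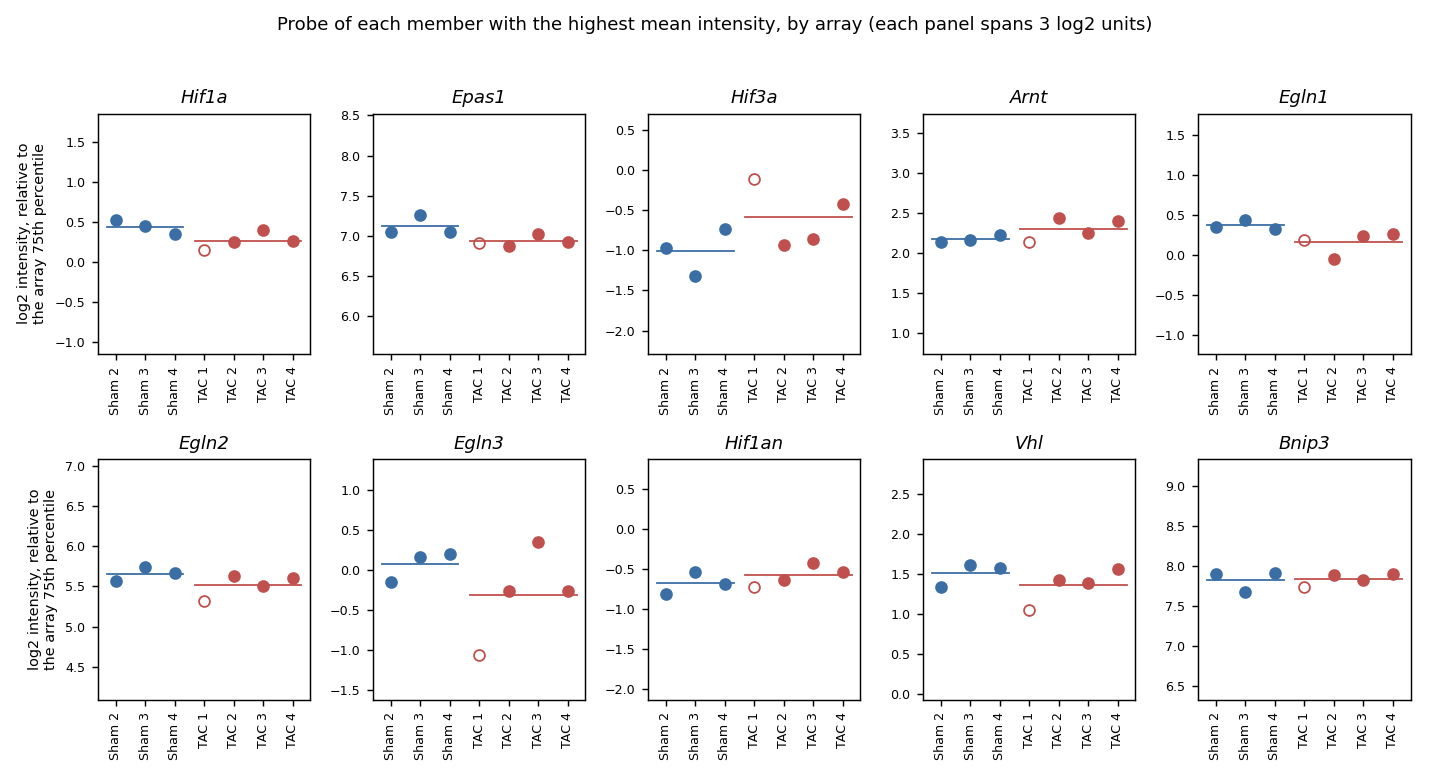
Level of each member on the 7 arrays, as log2 intensity relative to the array's 75th percentile (vertical axis, same span in every panel), for the probe with the highest mean intensity. Points are arrays, blue for Sham and red for TAC, the open point is TAC replicate 1, and lines are group means. Egln1 and Epas1 show all TAC arrays below all Sham arrays, and Egln3 has its lowest value, -1.07, on TAC replicate 1.

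Of the alpha subunits, Hif1a, the one present in most cells, measured 0.53, 0.45 and 0.35 on the Sham arrays and 0.16, 0.25, 0.40 and 0.26 on the TAC arrays (log2 level). TAC replicate 3 lay inside the Sham range and the other TAC arrays lay below it. The difference was -0.18 ± 0.093 (log2, SE), a fold of 0.885 with a 95% interval of 0.760 to 1.03 (adjusted p = 0.465). In the authors' table Sham replicate 1 measured 0.64, within the range of the other Sham arrays there (0.54 to 0.73), and the difference over 8 arrays was -0.19 ± 0.081.

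Epas1, the alpha subunit known from endothelial cells and adipocytes, had 3 probes for 1 transcript. Probe 1 measured 7.05, 7.26 and 7.05 on the Sham arrays and 6.91, 6.87, 7.02 and 6.92 on the TAC arrays. The TAC arrays all lay below the Sham arrays, with a gap smaller than the range within Sham. The difference was -0.18 ± 0.091 (fold 0.880, 95% interval 0.759 to 1.02, adjusted p = 0.447), and -0.11 without Sham replicate 3. In the table of 8 arrays Sham replicate 1 stood at 7.12, under the 7.20 of TAC replicate 3, so the groups overlapped. Probes 2 and 3 gave -0.076 ± 0.081 and -0.10 ± 0.14. The endothelial markers (9 genes) lay between -0.067 and 0.097 of the Sham mean on Sham arrays and between -0.062 and 0.081 on TAC arrays, in summed level 52.2 to 62.2 and 53.3 to 56.7 times the 75th percentile. At an unadjusted p under 0.05 in the limma fit, 2 of these 9 genes were higher and 0 lower, against 3.97% and 8.05% of all genes. The 2 were Emcn at 0.39 ± 0.12 and Tie1 at 0.34 ± 0.12, while Cldn5 was at -0.70 ± 0.30. The part of these markers in the Epas1 values was not tested.

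Hif3a, whose product includes forms that restrain the other alpha subunits, had the largest estimate of the members. Probe 1 measured -0.96, -1.31 and -0.73 on the Sham arrays and -0.10, -0.93, -0.86 and -0.43 on the TAC arrays. TAC replicates 1 and 4 were above all Sham arrays and the other TAC arrays were within the Sham range. The difference was 0.42 ± 0.24 (fold 1.34, 95% interval 0.912 to 1.98, adjusted p = 0.486), and 0.27 without TAC replicate 1 (95% interval -0.22 to 0.75) or without Sham replicate 3. In the authors' table Sham replicate 1 was the lowest of all 8 arrays at -1.33, and the difference was 0.54 ± 0.24 (adjusted p = 0.352). Probe 2 was well above background on 4 of the 7 arrays. It measured -4.08, -4.65 and -4.43 on Sham and -2.52, -4.77, -4.39 and -4.24 on TAC, so TAC replicate 1 alone was high. Its difference of 0.40 ± 0.51 became -0.082 without that array. Probe 3 was not well above background on any of the 7 arrays and was not tested.

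Arnt, the beta subunit, was measured by 2 probes. Probe 1 stood at 2.14, 2.17 and 2.22 on the Sham arrays and 2.13, 2.44, 2.25 and 2.40 on the TAC arrays. TAC replicate 1 was just below the Sham arrays and the other TAC arrays were above them. The difference was 0.13 ± 0.100 (fold 1.09, 95% interval 0.927 to 1.29, adjusted p = 0.611), and 0.081 without TAC replicate 2. Probe 2 gave 0.19 ± 0.16. Without TAC replicate 1 the differences were 0.18 and 0.31, with adjusted p-values of 0.411 and 0.380. In the table Sham replicate 1 had 2.53 for probe 1, above the other Sham arrays, and the difference over 8 arrays was 0.073. For probe 2 it was the lowest array there, at -0.14, and the difference over 8 arrays was 0.26 ± 0.16.

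Egln1, the main proline hydroxylase that limits HIF in most tissues, had the smallest adjusted p of the members. It measured 0.35, 0.44 and 0.32 on the Sham arrays and 0.19, -0.057, 0.23 and 0.26 on the TAC arrays. All TAC arrays were below all Sham arrays, and TAC replicate 2 was the lowest. The difference was -0.21 ± 0.10 (fold 0.864, 95% interval 0.729 to 1.02, adjusted p = 0.446). Without TAC replicate 2 it was -0.14, and without TAC replicate 1 it was -0.22. In the table of 8 arrays Sham replicate 1 stood at 0.39, below TAC replicates 3 and 4 (0.42 and 0.44), and the difference was -0.18 ± 0.098.

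Egln2, a hydroxylase not known as induced by hypoxia, gave -0.14 ± 0.11 and -0.11 ± 0.11 at its 2 probes (adjusted p 0.586 and 0.684). Probe 1 stood at 5.56, 5.74 and 5.67 on Sham and 5.31, 5.64, 5.51 and 5.60 on TAC, with TAC replicate 1 lowest. Without that array the differences were -0.076 and -0.030.

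Egln3, the hydroxylase with the strongest known induction by hypoxia, varied more between arrays than Egln1 or Egln2. Probe 1 measured -0.15, 0.16 and 0.20 on the Sham arrays and -1.07, -0.26, 0.35 and -0.26 on the TAC arrays. TAC replicate 1 was the lowest and TAC replicate 3 the highest of all 7 arrays, so the TAC arrays spanned the Sham range. The difference was -0.38 ± 0.31 (fold 0.766, 95% interval 0.464 to 1.27, adjusted p = 0.615). Without TAC replicate 1 it was -0.13 (95% interval -0.61 to 0.35), and without TAC replicate 3 it was -0.60 (adjusted p = 0.410). Probe 2 followed the same order of TAC arrays, at -1.99, -1.28, -0.63 and -1.33 against -1.22, -0.63 and -0.87 on Sham, with a difference of -0.40 ± 0.31. On TAC replicate 1, where both Egln3 probes were lowest and Hif3a probes 1 and 2 highest, the macrophage and lymphocyte marker lists were highest and the brown adipocyte list lowest. Their part in the Egln3 and Hif3a values was not tested.

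**Figure D2:**
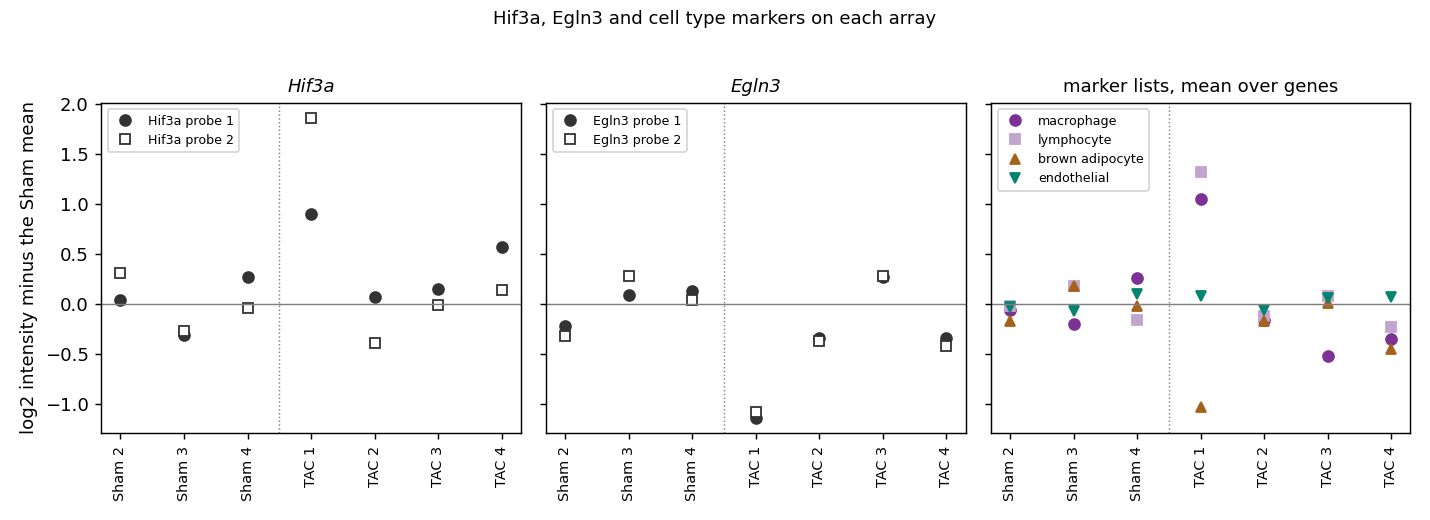
Hif3a (left), Egln3 (middle) and marker lists (right) on each of the 7 arrays, as log2 intensity minus the Sham mean (vertical axis). Filled and open points are probes 1 and 2 of a gene, and each point at right is the mean over the tested genes of a list. TAC replicate 1 has the highest Hif3a values and the lowest Egln3 values, with macrophage markers at 1.05 and brown adipocyte markers at -1.03. The brown adipocyte mean there leans on Elovl3 and Dio2.

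Hif1an, the asparagine hydroxylase, measured -0.82, -0.54 and -0.69 on Sham and -0.73, -0.64, -0.43 and -0.54 on TAC. The groups overlapped and the difference was 0.10 ± 0.11 (fold 1.07, 95% interval 0.895 to 1.28, adjusted p = 0.720). It ranged from 0.031 without Sham replicate 2 to 0.17 without Sham replicate 3, and was 0.048 without TAC replicate 3. Vhl measured 1.34, 1.61 and 1.57 on Sham and 1.05, 1.42, 1.38 and 1.57 on TAC. TAC replicate 1 was its lowest array. The difference was -0.15 ± 0.14 (fold 0.901, 95% interval 0.714 to 1.14, adjusted p = 0.672), and -0.048 without TAC replicate 1, -0.099 without Sham replicate 3 and -0.23 without Sham replicate 2.

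Bnip3, a mitochondrial protein of mitophagy and cell death that hypoxia induces in many cells, had the narrowest interval around 0 of the members known as hypoxia-induced. Probe 1 measured 7.90, 7.67 and 7.90 on the Sham arrays and 7.73, 7.89, 7.82 and 7.89 on the TAC arrays. The TAC arrays all lay within the Sham range. The difference was 0.0056 ± 0.095, and the 95% interval of the fold, 0.859 to 1.17, bounds a change in either direction. Probes 2 and 3 gave 0.054 ± 0.10 and -0.11 ± 0.14, with intervals of the fold of 0.879 to 1.23 and 0.734 to 1.16. Without TAC replicate 1 the differences of probes 1, 2 and 3 were 0.039, 0.12 and -0.026. In the table of 8 arrays probe 1 gave 0.031 ± 0.090, and centring the 7 arrays on their median gave -0.024.

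**Figure D3:**
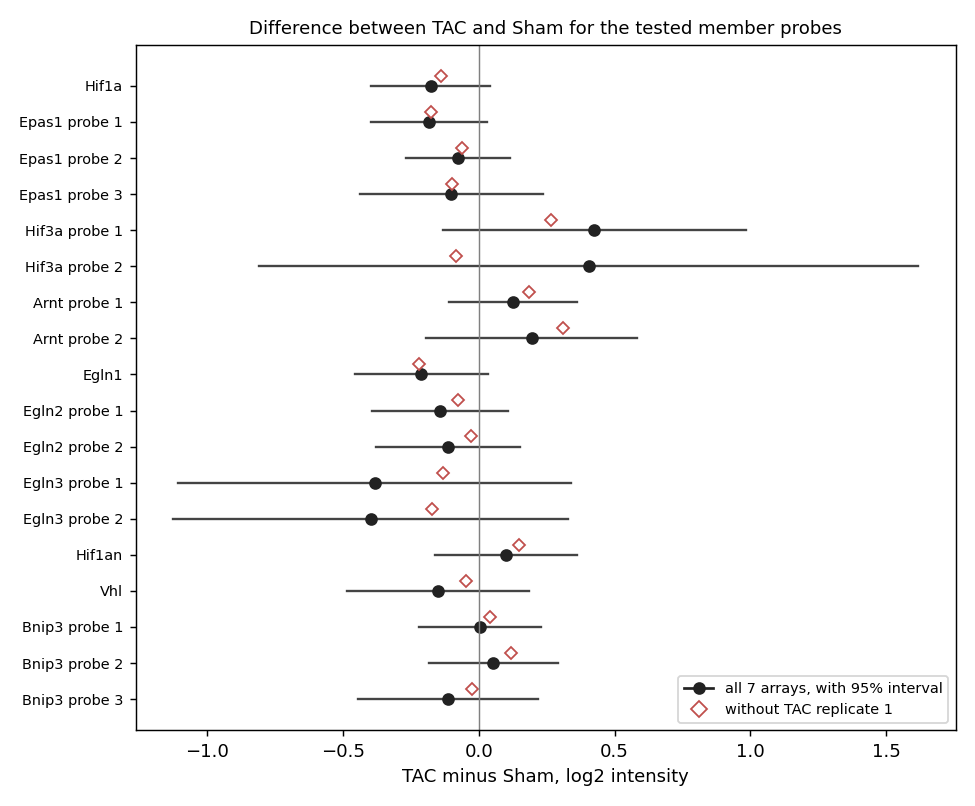
Difference between TAC and Sham (log2 intensity, horizontal axis) of the 18 tested member probes. Filled points are the estimates from 7 arrays with their 95% intervals, and open diamonds are the estimates without TAC replicate 1. Every interval crosses 0, and the estimate of Hif3a probe 2 moves from 0.40 to -0.082 without that array.

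Other genes had profiles close to those of the members. Over the 7 arrays, with each gene centred on its own mean, the 3 of 14981 genes closest to Hif3a were Sapcd2, Pck2 and Homer2, with mean absolute differences of 0.063, 0.066 and 0.082 (log2). Closest to Egln3 were Tysnd1, Ctxn1 and E430018J23Rik, at 0.085, 0.086 and 0.091. Closest to Bnip3, which spanned 0.23 over the arrays, were Stam2, Foxp4 and Yme1l1, at 0.020, 0.024 and 0.027. Egln3 spanned 1.41 and Hif3a 1.21. These are descriptions over 7 arrays that share a slide.

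The genes downstream of HIF were taken from 3 lists, with 1 probe for each gene, and none passed an adjusted p under 0.05. These lists were chosen with earlier results of these data known, so their counts only describe these arrays. Over all 14987 genes, 3.97% were higher and 8.05% lower at an unadjusted p under 0.05, with a median of -0.027. Of the 15 HIF targets of glucose metabolism, 8 were lower and 0 higher at that threshold, 13 estimates were below 0, and the median was -0.42. All TAC arrays lay below all Sham arrays for 8 of them, and for 5 in the table of 8 arrays, against 1619 and 975 of all 14987 genes. The part of the surgery in these values and that of the slide row cannot be told apart.

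Pdk1, the kinase that keeps pyruvate out of mitochondrial oxidation, measured 2.00, 1.96 and 1.85 on the Sham arrays and 1.16, 1.46, 1.14 and 1.34 on the TAC arrays. The groups were separated by more than the range within either of them. The difference was -0.66 ± 0.11 (fold 0.632, adjusted p = 0.196), and -0.62 without TAC replicate 1. Gbe1, the glycogen branching enzyme, gave -0.68 ± 0.13, with 6.01, 6.29 and 6.33 on Sham and 5.34, 5.68, 5.40 and 5.69 on TAC. Eno1 and Ldha, enzymes of glycolysis and lactate formation named after their values were seen, gave -0.63 ± 0.14 and -0.60 ± 0.16. Aldoa, Gapdh, Pfkl and Pgk1, also of glycolysis and also named after their values were seen, were the others of the 8. Genes such as Gapdh, Eno1, Pgk1 and Ldha have many near-identical pseudogene copies, whose RNA a probe may not tell apart. The smallest p among estimates above 0 belonged to Slc16a3, the lactate exporter, at 0.39 ± 0.29, and Pfkfb4, a regulator of glycolysis, at 0.085 ± 0.19. Slc16a3 was at 0.19 without Sham replicate 2 and 0.67 without Sham replicate 3, and Pfkfb4 at -0.064 without TAC replicate 1. Skeletal muscle markers (11 genes), whose tissue is rich in glycolytic enzymes, lay between -0.89 and 0.87 of the Sham mean on Sham arrays and between -0.49 and 1.63 on TAC arrays, in summed level 43.6 to 162 and 55.8 to 256 times the 75th percentile. Of the 12 brown adipocyte markers 2 were lower and 0 higher at the unadjusted threshold, and their mean lay between -0.17 and 0.18 of the Sham mean on Sham arrays and between -1.03 and 0.0061 on TAC arrays, in summed level 4898 to 5927 and 3962 to 5245. The part of either list in the glycolytic values was not tested.

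Among the HIF targets of vessels, blood and secreted factors, 10 of 11 were tested, 2 were higher and 0 lower at the unadjusted threshold, and the median was -0.018. Angptl4, a secreted inhibitor of lipoprotein lipase that fasting and fatty acid receptors also induce, measured 7.29, 7.77 and 7.69 on Sham and 8.39, 7.88, 8.30 and 8.46 on TAC. All TAC arrays were above all Sham arrays, and the difference was 0.67 ± 0.18 (fold 1.59, adjusted p = 0.256). In the authors' table Sham replicate 1 stood at 7.94, within the range of the other Sham arrays there. Vegfa, the vascular growth factor, measured 5.60, 5.27 and 5.46 on Sham and 5.76, 5.64, 5.74 and 5.67 on TAC. The TAC arrays were again all above the Sham arrays, in the table of 8 arrays too, with a difference of 0.26 ± 0.10 (fold 1.20, adjusted p = 0.362). It was 0.21 in the table of 8 arrays and 0.24 without TAC replicate 1, neither of which passed the unadjusted threshold, and 0.17 without Sham replicate 3. Edn1, the vasoconstrictor endothelin-1, and Flt1, a VEGF receptor, had the smallest p among the estimates below 0, at -0.23 ± 0.14 and -0.054 ± 0.11. Edn1 was at -0.11 without TAC replicate 1, and Flt1 at 0.013 in the table of 8 arrays.

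Among the HIF targets of mitochondria, matrix, pH and signalling, 13 of 16 were tested, 2 were higher and 1 was lower at the unadjusted threshold, and the median was 0.0016. Ndrg1, a stress-induced gene, measured 2.56, 2.55 and 2.70 on Sham and 3.25, 2.92, 2.90 and 2.85 on TAC, a difference of 0.38 ± 0.12 (adjusted p = 0.306) with no overlap. Cited2, which competes with the HIF alpha subunits for EP300 and CREBBP, gave 0.90 ± 0.33 (fold 1.87, adjusted p = 0.349), with Sham arrays from 0.19 to 1.17 and TAC arrays from 1.01 to 2.24. Its groups overlapped, and the difference was 0.67 without TAC replicate 1, which was its highest array, and 0.70 in the table of 8 arrays, where its unadjusted p was 0.0670. Higd1a, a mitochondrial inner membrane protein, gave -0.47 ± 0.14 (adjusted p = 0.285), with TAC replicate 1 lowest at 6.18, and -0.36 without that array. Ero1a, an oxidase of the endoplasmic reticulum, gave -0.17 ± 0.089, and -0.11 without Sham replicate 4.

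No partner of the pathway passed the adjusted test. Of 15 VHL ligase partners and HIF cofactors, 0 were higher and 0 lower at the unadjusted threshold, and the median was -0.063. The smallest p above 0 belonged to Os9, reported to join EGLN enzymes with HIF-1α, at 0.18 ± 0.082, and Rack1, a competitor of HSP90 for HIF-1α, at 0.16 ± 0.11, which was 0.049 without Sham replicate 2. Below 0 they were Usp20, a deubiquitinase, at -0.19 ± 0.10 and Eloc, the elongin C subunit of the VHL ligase, at -0.18 ± 0.11, which were -0.11 and -0.091 without Sham replicate 3. Of 13 other oxygen-dependent dioxygenases and relatives of ARNT, 10 were tested, 1 was higher and 0 were lower, and the median was 0.084. The one was P4htm, a transmembrane prolyl hydroxylase, at 0.34 ± 0.13 (adjusted p = 0.356). Without TAC replicate 1 it was 0.28, with an unadjusted p of 0.0642, over the threshold. Ahr, a dioxin receptor that also pairs with ARNT, gave 0.31 ± 0.15. Ado, which oxidises N-terminal cysteines, and Kdm6a, a histone demethylase, gave -0.080 ± 0.096 and -0.0023 ± 0.085, and Ado ranged from -0.13 without Sham replicate 2 to -0.025 without Sham replicate 3. Over the 5 lists together, 63 of 70 genes were tested, 5 were higher and 9 lower at the unadjusted threshold, against 3.97% and 8.05% of all genes. Of the 9 lower, 8 were HIF targets of glucose metabolism.

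**Figure D4:**
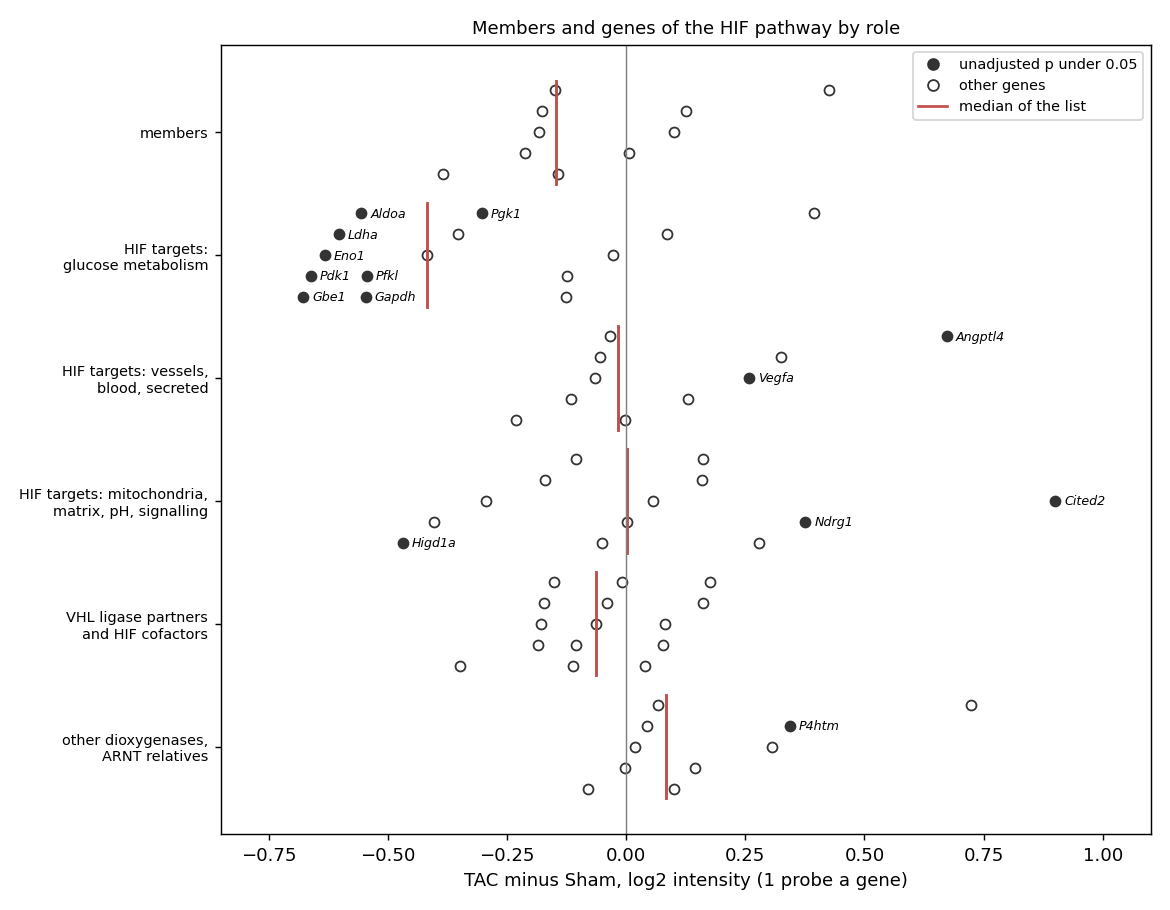
Difference between TAC and Sham (log2 intensity, horizontal axis) of the 10 members and of the 63 tested genes of the 5 lists, with 1 probe a gene. Filled and named points have an unadjusted p under 0.05, open points do not, and red lines are medians. The filled points of the glucose metabolism list lie between -0.68 and -0.30, and no gene shown passed the adjusted threshold.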

How the data were processed

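Labelled cRNA of each sample was hybridized and the authors read the spots with Agilent Feature Extraction 10.7.1.1, per the labels. The deposited scanner files of 7 arrays hold background-subtracted intensity per spot, and a deposited table holds intensity of all 8 arrays, divided by each array's 75th percentile by its values (over probes above 100 units, a constant multiple of the scanner intensity within 1% on the 7 arrays that have both; dimmer probes were not compared). How the table was made is not given in the sources used here. Spots marked as outliers were dropped (134 to 191 per array), intensities were put on a log2 scale, the 75th percentile of the 59305 spots that are not controls was subtracted, and spots of a probe were averaged. Probes entered the test when at least 3 arrays had them well above background and at least 2 arrays of each group gave a value. The groups were compared in limma 3.58.1 (R 4.3.3; lmFit, then eBayes), after a trial on simulated data, and p-values were adjusted by Benjamini-Hochberg over 33356 probes. Adjusted p-values are from this test, or, where an array is left out or the table or another setting is named, from the same test on those values, adjusted over the probes tested there. The number of arrays limits the precision. Symbols came from RefSeq (GRCm38.p6) by accession for 28026 of 55681 probes (50.3%), and the probe with the highest mean intensity stands for a gene. Named genes are all members, from each list the 2 with the smallest p in each direction, and the 3 closest in profile to Hif3a, Egln3 and Bnip3. The members and lists were chosen with earlier results of these data known. Labels call the samples independent but name no animal, so the p-values measure the spread between these samples.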

Additional observations from a re-analysis of the deposited data

Results flagged for a closer look

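Among the 76 groups of 4 arrays searched (TAC by scanner values, Sham by the authors' table, for each tested member probe and each named gene of the lists), 4 had 1 array far from the other 3, by the gap to its neighbour over the range of the group. Chance gives such a gap in about 1 of 20 groups. No member was among them. Pfkfb4 stood at 0.45 (log2) on TAC replicate 1, with the other TAC arrays at -0.21 to -0.12, a gap of 0.863 of the range. Edn1 stood at -3.63 on TAC replicate 1, with the others at -3.20 to -3.12, a gap of 0.837. Higd1a stood at 6.18 on TAC replicate 1, with the others at 6.57 to 6.64, a gap of 0.847. Angptl4 stood at 7.49 in the table for Sham replicate 2, with the remaining Sham arrays at 7.89 to 7.96, a gap of 0.845.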

How the results depend on the processing

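Of 210 values of the members under alternatives, 204 kept their direction, the other 6 were all of Bnip3, and 0 passed an adjusted p under 0.05 (smallest 0.343). Of 420 values of the named list genes, 404 kept their direction, the other 16 were of Pfkfb4, Flt1 and Kdm6a, and 0 passed (smallest 0.0758). Some alternatives change only the variance or the probes tested, so their estimates are those of the main fit and their direction was fixed. They are no filter on dim probes, probes well above background on every array, the intensity trend and the methods' t-test. Keeping outlier spots also left the estimates of the members unchanged. The count of member probes lower at an unadjusted p under 0.05, 0 with the 7 arrays, was 1 under normexp (Egln1), the table of 8 arrays (Hif1a), an intensity trend in the variance (Epas1) and the methods' t-test (Epas1), and 0 to 2 with 1 array left out (2 without TAC replicate 3, both Egln3 probes). Over all probes, 2688, 3186, 2922 and 2584 of 33356 were lower under these settings in the same order, and 2627 of 33244 without TAC replicate 3. The count of member probes higher was 1, Arnt probe 2, against 1524 of all 33356 probes. This was in the table without TAC replicate 1, an alternative added after seeing the data. The 8 glucose targets lower became 5 there and 7 to 9 with 1 array left out. The 4 other HIF targets higher became 2 in the table of 8 arrays, 2 when TAC replicate 1 was left out of it, and 1 to 4 with 1 array left out (1 without Sham replicate 3, 2 without TAC replicate 4). Bnip3 was -0.024 under median centring, -0.0095 in the table of the same 7 arrays, -0.018 when its probes were averaged, and between -0.071 and 0.044 with 1 array left out. Pfkfb4 was -0.11 when that table lacked TAC replicate 1 and between -0.064 and 0.19 with 1 array left out. Flt1 was 0.028 after quantile normalization, 0.013 by the table of 8 arrays, 0.055 by the table lacking TAC replicate 1, and between -0.15 and 0.0044 with 1 array left out. Kdm6a was 0.011 in the table of 8 arrays, 0.022 without TAC replicate 1 there, and between -0.032 and 0.032 with 1 array left out. A pairing of the samples by replicate number was not seen, and so few samples cannot exclude one. The deviations of same-numbered samples from their group means correlated at -0.025 to 0.0017 (3 pairs, scanner values) and 0.019 to 0.27 (4 pairs, table). With their own number, 1 of 6 samples and 2 of 8 correlated best. With the replicate block, Pfkfb4 was -0.064 and Kdm6a 0.011 over 7 arrays, and Flt1 was 0.013 and Kdm6a 0.011 over the 8 arrays of the table. Over the 7 arrays, replicate 1 is a TAC array alone, so the block leaves it out of the comparison. The block estimates of the members there equalled those without TAC replicate 1. Over the 8 arrays the block left the estimates as they were in the table. The block called 0 probes at an adjusted p under 0.05, and 1344 were higher and 2478 lower unadjusted over 7 arrays, against 1462 and 2811 without it. The cause of the other shifts was not tested. The median over all probes ranged from -0.062 to 0.0060 over the alternatives. Probes near background, such as Hif3a probe 2, limit what can be measured.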
